A study of Mus musculus with 4 samples.

Results

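Genes of voltage-gated sodium channels, voltage-gated calcium channels and potassium channels were examined in sorted cells of the mouse main olfactory epithelium (MOE). Members were all genes in the deposited values whose symbols carry the roots *Kcn*, *Scn*, *Cacna*, *Cacnb* or *Cacng* in the form used for channel subunits. This rule used symbols and no measured value, and it found 136 of 24421 genes. Of these, 132 were protein coding in the GENCODE M21 annotation and 4 were noncoding RNA genes named after a channel gene. By role, there were 13 sodium channel genes, 26 calcium channel genes, 40 pore subunit genes of voltage-gated potassium (Kv) channels, 12 genes of auxiliary subunits of potassium channels, 12 genes of potassium channels opened by calcium or sodium, 15 inward rectifier genes and 14 genes of potassium channels with a pair of pore domains.

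The study placed each of its TAAR enhancers in front of a reporter gene and asked in which cells of the MOE the reporter was expressed. By in situ hybridization it found most reporter-positive cells of both lines co-labelled with probes for trace amine-associated receptor (*Taar*) genes. It also reported higher *Taar* and lower odorant receptor expression in the sorted reporter-positive than reporter-negative cells. Mice of the TAAR enhancer 1-GFP line carried a PiggyBac transgene with TAAR enhancer 1, the minimal promoter of mouse *Hsp68* and GFP, and mice of the TAAR enhancer 2-tdTomato line carried TAAR enhancer 2, the same promoter and tdTomato. Cells were sorted by fluorescence into GFP-positive and GFP-negative cells, or into tdTomato-positive and tdTomato-negative cells, and each of these 4 groups has 1 RNA-seq library. The labels give the strain C57BL/6 and the age adult for all groups. The study's methods state that the transgenes of both lines were injected into eggs of C57BL/6J mice. Its reporting summary lists a mixed background for its mouse lines in general and ages in the early postnatal weeks for both lines. Which background and age apply to these libraries is not known. Each line comes from 1 founder, animals of a genotype were pooled for sorting, and the reporter-negative cells hold all other cells of the tissue. For the reporter-negative cells of its *Taar5* and *Taar6* Cre lines, the study estimated that most were olfactory sensory neurons (OSNs) with odorant receptors. It gave no such estimate for these lines. In both lines only a minority of OSNs with *Taar* genes expressed the reporter, so the reporter-negative cells also hold such OSNs. Because each group has 1 library, differences have no replicate check and no test was possible.

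Voltage-gated sodium, calcium and potassium channels open when the membrane depolarises and shape the action potential and transmitter release, while inward rectifier and pore-pair potassium channels set the resting potential and, in epithelia, recycle potassium across the membrane. In an OSN, odorants open a cyclic nucleotide-gated channel and then a calcium-activated chloride channel in the cilia, and the channels described here turn that receptor current into action potentials that travel to the olfactory bulb. Supporting, glandular and ciliated cells of the MOE do not fire action potentials and are known for potassium channels that serve fluid and ion transport.

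Values are in TPM, the number of transcripts of a gene among 1000000 transcripts of the library, which takes transcript length into account, so levels can be set side by side between genes of 1 library, and a change in a gene is a change relative to all RNA of that library. Log2 fold changes are log2(TPM + 1) of reporter-positive cells minus that of reporter-negative cells of the same line. A gene was tested in a line when it was at 1 TPM or more in either library, and is called higher or lower here when it differed by at least 2-fold on that scale. Most of the 12 lists of cell type markers differed between the sorted cells. The 12 markers of mature OSNs were all present, and their summed level was 27841 TPM in GFP-negative against 3065 TPM in GFP-positive cells, with 28641 TPM in tdTomato-negative against 12861 TPM in tdTomato-positive cells. All 12 were lower in GFP-positive cells and 6 of 12 in tdTomato-positive cells. Markers of Bowman gland cells summed to 1715 TPM in GFP-negative against 68923 TPM in GFP-positive cells, with 230.2 TPM in tdTomato-negative against 2055 TPM in tdTomato-positive cells, and 5 of 5 were higher in both lines. Those of sustentacular cells summed to 939 TPM in GFP-negative against 8971 TPM in GFP-positive cells, with 1616 TPM in tdTomato-negative against 7128 TPM in tdTomato-positive cells. Of these, 6 of 6 were higher in GFP-positive cells and 2 higher and 2 lower in tdTomato-positive cells. Those of multiciliated cells summed to 969.7 TPM in GFP-negative against 2846 TPM in GFP-positive cells, with 849.6 TPM in tdTomato-negative against 8719 TPM in tdTomato-positive cells, with 6 and 8 of 8 higher, although *Ccdc153* was listed at 0 in GFP-negative cells. Markers of horizontal basal cells summed to 43.2 TPM in GFP-negative against 599.5 TPM in GFP-positive cells, with 112 TPM in tdTomato-negative against 27.9 TPM in tdTomato-positive cells. They were higher in GFP-positive cells (4 of 4) and lower in tdTomato-positive cells (4 of 4). Markers of immune cells summed to 4689.6 TPM in GFP-negative against 173 TPM in GFP-positive cells, with 2304 TPM in tdTomato-negative against 143 TPM in tdTomato-positive cells, with 6 of 6 lower in both lines, and *Cd3e* was listed at 0 in GFP-positive cells. Markers of immature OSNs summed to 2257 TPM in GFP-negative against 626 TPM in GFP-positive cells, with 1634 TPM in tdTomato-negative against 842 TPM in tdTomato-positive cells. Of these, 5 of 5 were lower in GFP-positive and 3 of 5 lower in tdTomato-positive cells. Those of globose basal cells and neuronal precursors summed to 131 TPM in GFP-negative against 35.3 TPM in GFP-positive cells, with 111 TPM in tdTomato-negative against 14.4 TPM in tdTomato-positive cells. In GFP-positive cells 4 of 5 were lower and 1 was higher, and 5 of 5 were lower in tdTomato-positive cells, where *Neurog1* was among those listed at 0. Markers of stromal fibroblasts summed to 52.4 TPM in GFP-negative against 148 TPM in GFP-positive cells, with 35.4 TPM in tdTomato-negative against 34.4 TPM in tdTomato-positive cells. In GFP-positive cells 3 of 4 were higher, and none was past 2-fold in tdTomato-positive cells. In these bulk libraries, fewer cells of a type and less RNA per cell cannot be told apart.

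In the reporter-negative cells, the channel genes with the highest levels were those of excitable membranes. *Kcnc4*, which encodes a fast-inactivating Kv3 subunit, was the highest in both lines, at 386 TPM in GFP-negative and 557 TPM in tdTomato-negative cells, and ranked 355 and 197 among all genes of these libraries. The next were *Cacnb3*, a calcium channel beta subunit, and *Scn9a*, the sodium channel pore subunit that OSNs need for transmitter release. The same 10 members, *Kcnc4*, *Cacnb3*, *Scn9a*, *Kcnh4*, *Kcnab2*, *Scn3b*, *Kcnmb3*, *Cacna1h*, *Scn4b* and *Kcnh3*, were the 10 highest in GFP-negative, tdTomato-negative and tdTomato-positive cells. They took 67.1% of all channel TPM in GFP-negative cells, 67.4% in the tdTomato-negative and 59.4% in the tdTomato-positive library. In GFP-positive cells 6 of these 10 remained among the 10 highest, and the first place was taken by *Kcnj16*, an inward rectifier, at 125 TPM. Without replicates, no spread is known for the order of neighbouring members.

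Most channel genes were low in this tissue. In all, 23 of the 136 members were listed at 0 in the 4 libraries, another 21 stayed under 1 TPM, 92 reached 1 TPM in some library, 53 reached 10 TPM and 12 reached 100 TPM. The genes at 0 in every library included 5 of the 8 *Cacng* genes, *Scn1a* and *Scn10a* of the 9 sodium channel pore genes, *Kcnd2*, *Kcnt2*, *Kcnip1*, *Kcne4*, *Kcnj6*, *Kcnj14* and 4 of the 14 *Kcnk* genes. The number above 0 TPM was 96 in GFP-negative, 106 in GFP-positive, 83 in tdTomato-negative and 81 in tdTomato-positive cells, and these numbers depend on a sequencing depth that the values do not give. The 2 reporter-negative libraries were alike for these genes, as all 39 members at 10 TPM or more in both lay within 2-fold of each other, with log2 differences from -0.96 to 0.88 (tdTomato-negative minus GFP-negative), while 93.7% of all 9988 genes at that level did.

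The summed level of the members was 3852 TPM in GFP-negative against 999.8 TPM in GFP-positive cells, and it was 4786 TPM in tdTomato-negative against 3450.2 TPM in tdTomato-positive cells. These sums were 0.385%, 0.09998%, 0.479% and 0.345% of all TPM. The log2 ratio of the sums was -1.95 for GFP-positive over GFP-negative cells and -0.47 for tdTomato-positive over tdTomato-negative cells. Both ratios changed sign when libraries were scaled to the mature OSN markers, to 1.13 and 0.55. Sodium, calcium and Kv channel genes made up most of the lower sums in reporter-positive cells, and the sum of the inward rectifier genes went the other way in both lines, as the plot of summed levels by group shows. The sum of the pore-pair potassium channel genes was also higher in both lines, but by less than 2-fold (log2 ratios 0.51 and 0.50).

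**Figure D1:**
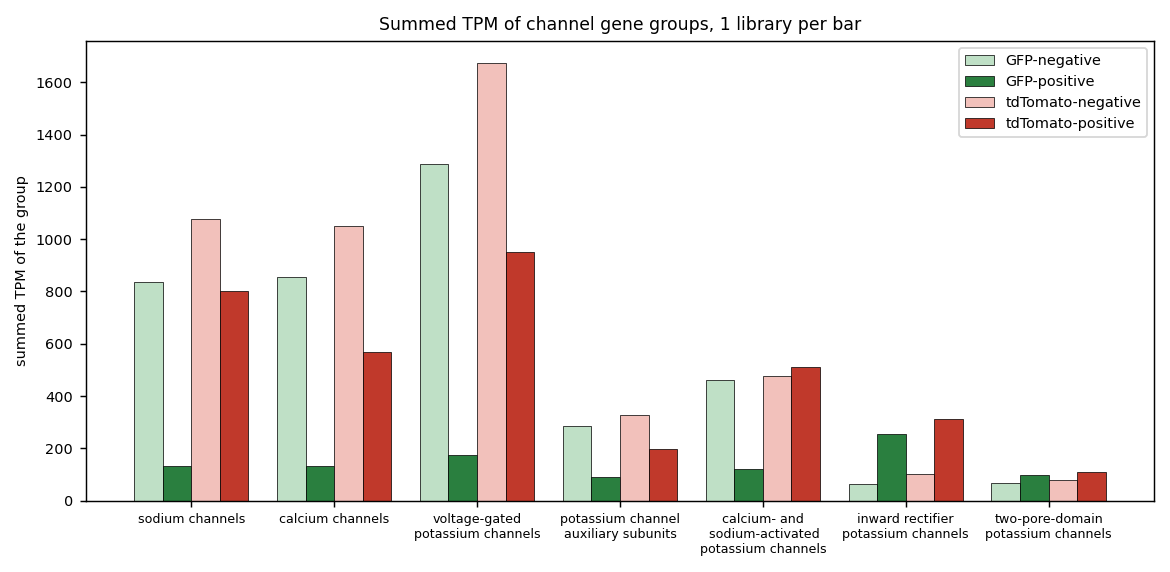
Summed TPM of 7 groups of channel genes (horizontal axis) in GFP-negative, GFP-positive, tdTomato-negative and tdTomato-positive cells, with 1 library per bar and therefore no error bars. Kv channel genes summed to 1285 TPM in GFP-negative against 173 TPM in GFP-positive cells, with 1675 TPM in tdTomato-negative against 949 TPM in tdTomato-positive cells, while inward rectifier genes summed to 62.98 TPM in GFP-negative against 255 TPM in GFP-positive cells, with 102 TPM in tdTomato-negative against 314 TPM in tdTomato-positive cells.

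In the TAAR enhancer 1-GFP line, 82 members were tested, of which 49 were lower and 15 were higher in GFP-positive cells. Among all 16173 genes tested in that line, 45% were lower and 14.2% were higher. The median log2 fold change was -1.35 over the members and -0.88 over all genes tested. In the TAAR enhancer 2-tdTomato line, 86 members were tested, of which 24 were lower in tdTomato-positive cells and 14 higher, against 23.2% and 17.2% of all 15777 genes tested, and the medians were -0.58 and -0.23. The counts of higher and lower members depend on the scaling of the libraries. After median-ratio scaling there were 20 higher and 40 lower members in GFP-positive cells, and 14 and 20 in tdTomato-positive cells. After scaling to the mature OSN markers there were 45 higher and 3 lower members in GFP-positive cells, and 24 and 13 in tdTomato-positive cells. Of the 49 members called lower in GFP-positive cells, 25 changed sign under that last scaling, whose log2 factor in the GFP line was 3.08. The 24 called lower in tdTomato-positive cells kept their sign under all 3 scalings tried. The largest log2 factor in the tdTomato line was 1.02, and a lower call already needs a 2-fold fall. Almost none of these calls could therefore change sign. All 3 scalings raise reporter-positive values in both lines, so a gene called higher could not change sign under them.

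Of the 76 members tested in both lines, 13 were lower in both, against 15.4% of all genes tested in both, and 9 were higher in both, against 8.42%. The members lower in both included *Cacnb3*, *Cacna2d1*, *Cacna1e*, *Cacng4*, *Cacng7*, *Scn4a*, *Kcna3*, *Kcna5*, *Kcns3*, *Kcnh6*, *Kcnn3* and *Kcnj3*. Those higher in both were *Kcnj1*, *Kcnj5*, *Kcnj13*, *Kcnj16*, *Kcne2*, *Kcne3*, *Kcnab1*, *Kcnmb1* and *Kcnk12*. Another 33 members were lower in GFP-positive cells and differed by less than 2-fold in tdTomato-positive cells. A single member, *Kcnmb4*, was lower in one line and higher in the other. The plot of the changes in both lines shows these groups. Most inward rectifiers lie at the upper right, but *Kcnj2* and *Kcnj3* lie at the lower left, and *Cacnb1*, *Cacnb4* and *Kcns1* lie apart from the other calcium and Kv channel genes on the upper side.

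**Figure D2:**
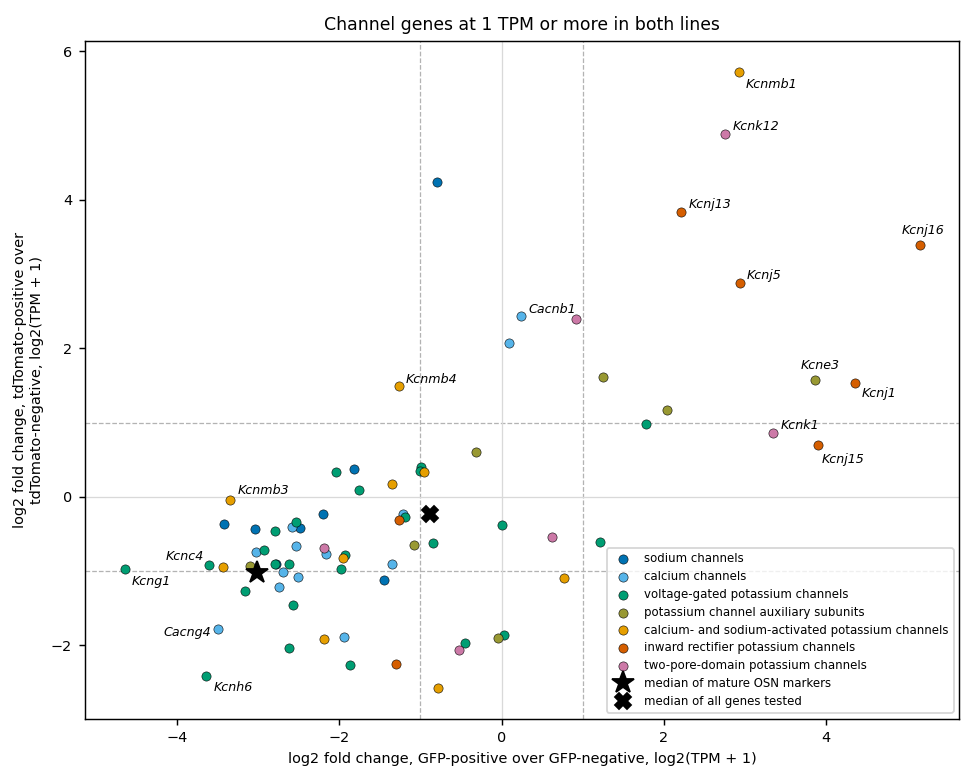
Log2 fold change of each channel gene tested in both lines, in the GFP line (horizontal axis) and the tdTomato line (vertical axis), with 1 point per gene coloured by group, dashed lines at 2-fold, and the medians of the mature OSN markers (-3.02 and -1.02) and of all genes tested in each line (-0.88 and -0.23). The plot shows 9 genes above 2-fold in both lines and 13 below it, and the height of *Kcnmb1* and *Kcnk12* depends on the pseudocount because they were listed at 0 in tdTomato-negative cells.

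Sodium channel genes fell in GFP-positive cells relative to all RNA, with 7 of the 8 tested lower and none higher, while in tdTomato-positive cells 2 of the 9 tested were lower and 1 was higher. Of all genes tested, 45% were lower and 14.2% higher in the GFP line, and 23.2% and 17.2% in the tdTomato line, so that the sodium channel counts of the tdTomato line lay near those shares. Their summed level was 834 TPM in GFP-negative against 132 TPM in GFP-positive cells, with 1075 TPM in tdTomato-negative against 802 TPM in tdTomato-positive cells, giving log2 ratios of -2.66 in the GFP line and -0.42 in the tdTomato line, and scaling to the mature OSN markers turned both to 0.41 and 0.60. *Scn9a* was at 282 TPM in GFP-negative against 40.03 TPM in GFP-positive cells and at 328 TPM in tdTomato-negative against 175 TPM in tdTomato-positive cells (log2 fold changes -2.78 and -0.90). It was therefore high in both reporter-negative libraries and lowest in GFP-positive cells. Pore subunits with more than 10 TPM also included *Scn8a*, the subunit of nodes of Ranvier, and *Scn3a*, a subunit of developing neurons. *Scn8a* was at 30.8 TPM in GFP-negative against 2.87 TPM in GFP-positive cells and at 41.4 TPM in tdTomato-negative against 30.5 TPM in tdTomato-positive cells (log2 fold changes -3.04 and -0.43). *Scn3a* was at 24.1 TPM in GFP-negative against 6.13 TPM in GFP-positive cells and at 20.8 TPM in tdTomato-negative against 27.3 TPM in tdTomato-positive cells (log2 fold changes -1.82 and 0.38). These 3 pore genes were lower in GFP-positive cells, and none of the 3 differed by 2-fold in tdTomato-positive cells. The fall in *Scn3a* and *Scn9a* changed sign under scaling to the mature OSN markers, while that in *Scn8a* did not.

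Of the beta subunits, which tune gating and surface expression of the pore subunit, *Scn3b* and *Scn4b* were among the highest channel genes. *Scn3b* was at 246 TPM in GFP-negative against 52.8 TPM in GFP-positive cells and at 315 TPM in tdTomato-negative against 269 TPM in tdTomato-positive cells (log2 fold changes -2.20 and -0.23). *Scn4b* was at 179 TPM in GFP-negative against 15.8 TPM in GFP-positive cells and at 278 TPM in tdTomato-negative against 216 TPM in tdTomato-positive cells (log2 fold changes -3.42 and -0.36). Both were lower in GFP-positive cells and stayed within 2-fold in tdTomato-positive cells, and the fall in *Scn3b* changed sign under scaling to the mature OSN markers. *Scn2b* stayed under 1 TPM in all libraries. The older symbol *Scn2a1*, which the rule does not match and which was looked at after its values were seen, was at 7.88 TPM in GFP-negative against 0.806 TPM in GFP-positive cells and at 4.91 TPM in tdTomato-negative against 4.94 TPM in tdTomato-positive cells.

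Calcium channel genes also fell in GFP-positive cells relative to all RNA, with 12 of the 14 tested lower and none higher. In tdTomato-positive cells 7 of the 16 tested were lower and 2 were higher. The shares over all genes were 45% lower and 14.2% higher in the GFP line and 23.2% and 17.2% in the tdTomato line. Their sums were 857 TPM in GFP-negative against 132 TPM in GFP-positive cells, with 1051 TPM in tdTomato-negative against 568 TPM in tdTomato-positive cells, with log2 ratios of -2.70 and -0.89, which became 0.38 and 0.13 under scaling to the mature OSN markers. The pore subunit with the highest level was *Cacna1h*, which forms a T-type channel opened by small depolarisations, and it was at 197 TPM in GFP-negative against 23.3 TPM in GFP-positive cells and at 222 TPM in tdTomato-negative against 132 TPM in tdTomato-positive cells (log2 fold changes -3.03 and -0.75). *Cacna1d*, an L-type pore subunit, was at 58.7 TPM in GFP-negative against 9.36 TPM in GFP-positive cells and at 74.6 TPM in tdTomato-negative against 46.8 TPM in tdTomato-positive cells (log2 fold changes -2.53 and -0.66). *Cacna1b*, the N-type pore subunit of presynaptic terminals, was at 56.2 TPM in GFP-negative against 8.51 TPM in GFP-positive cells and at 58.9 TPM in tdTomato-negative against 43.97 TPM in tdTomato-positive cells (log2 fold changes -2.59 and -0.41). Thus T-type, L-type and N-type pore genes were each several times lower in GFP-positive than in GFP-negative cells, and each was within 2-fold in tdTomato-positive cells, and for *Cacna1b* and *Cacna1d* the fall changed sign under scaling to the mature OSN markers. The P/Q-type gene *Cacna1a* was lower in GFP-positive cells, with a change of sign under the same scaling (4.800, 1.28, 10.8 and 5.31 TPM, in the order GFP-negative, GFP-positive, tdTomato-negative and tdTomato-positive cells, which is used for values in parentheses from here on). The R-type gene *Cacna1e* (3.62, 0.202, 2.72 and 0 TPM) was lower in both lines and listed at 0 in tdTomato-positive cells.

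Auxiliary calcium channel subunits, which carry the pore to the membrane and set its gating, did not move as 1 block. *Cacnb3* was at 346 TPM in GFP-negative against 59.9 TPM in GFP-positive cells and at 469 TPM in tdTomato-negative against 221 TPM in tdTomato-positive cells (log2 fold changes -2.51 and -1.08). *Cacna2d1*, the alpha2delta subunit that binds gabapentin, was at 60.5 TPM in GFP-negative against 8.17 TPM in GFP-positive cells and at 76.1 TPM in tdTomato-negative against 32.1 TPM in tdTomato-positive cells (log2 fold changes -2.75 and -1.22). Both were lower in both lines, and in GFP-positive cells both changed sign under scaling to the mature OSN markers. *Cacnb2* was at 36.8 TPM in GFP-negative against 7.41 TPM in GFP-positive cells and at 47.4 TPM in tdTomato-negative against 27.4 TPM in tdTomato-positive cells (log2 fold changes -2.17 and -0.77), lower in GFP-positive cells, where it changed sign under that scaling. *Cacnb1* (3.94, 4.84, 3.15 and 21.4 TPM) and *Cacnb4* (0.9297, 1.06, 0.686 and 6.11 TPM) were higher in tdTomato-positive cells, with log2 fold changes of 2.43 and 2.08, and within 2-fold in GFP-positive cells. The highest beta subunit in each library was still *Cacnb3*. *Cacng4* and *Cacng7*, whose proteins also regulate AMPA receptors, were the only *Cacng* genes at 1 TPM or more in any library. *Cacng4* was at 66.9 TPM in GFP-negative against 5.02 TPM in GFP-positive cells and at 54.96 TPM in tdTomato-negative against 15.3 TPM in tdTomato-positive cells (log2 fold changes -3.50 and -1.78), among the largest falls of both lines. *Cacng7* was lower in both lines too (14.8, 1.46, 20.8 and 9.78 TPM).

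Kv channel genes had the largest difference in summed TPM, at 1285 TPM in GFP-negative against 173 TPM in GFP-positive cells, with 1675 TPM in tdTomato-negative against 949 TPM in tdTomato-positive cells. Of the 26 tested in the GFP line 19 were lower and 2 were higher, *Kcnh1* and *Kcns1*, and of the 27 tested in the tdTomato line 7 were lower and none was higher. All genes tested had 45% lower and 14.2% higher in the GFP line and 23.2% lower and 17.2% higher in the tdTomato line, and the share of lower Kv genes in the tdTomato line was near the latter. The log2 ratio of the sums was -2.89 in the GFP line and -0.82 in the tdTomato line, and 0.18 and 0.20 under scaling to the mature OSN markers. *Kcnc4* was at 386 TPM in GFP-negative against 30.8 TPM in GFP-positive cells and at 557 TPM in tdTomato-negative against 294 TPM in tdTomato-positive cells (log2 fold changes -3.60 and -0.92), and remained the highest channel gene of tdTomato-positive cells. Among the Kv1 genes, which encode delayed rectifiers of axons and cell bodies, *Kcna5* was at 84.9 TPM in GFP-negative against 13.4 TPM in GFP-positive cells and at 143 TPM in tdTomato-negative against 51.5 TPM in tdTomato-positive cells (log2 fold changes -2.57 and -1.46). *Kcna2* was at 53.1 TPM in GFP-negative against 7.78 TPM in GFP-positive cells and at 85.7 TPM in tdTomato-negative against 45.2 TPM in tdTomato-positive cells (log2 fold changes -2.62 and -0.91). *Kcna6* was at 23.99 TPM in GFP-negative against 2.62 TPM in GFP-positive cells and at 44.99 TPM in tdTomato-negative against 23.7 TPM in tdTomato-positive cells (log2 fold changes -2.79 and -0.90). All 3 were lower in GFP-positive cells, and *Kcna5* was lower in both lines, with the falls of *Kcna2* and *Kcna5* in GFP-positive cells changing sign under scaling to the mature OSN markers. *Kcna3* (6.49, 0.217, 15.5 and 3.03 TPM, log2 fold changes -2.62 and -2.03) was lower in both lines. *Kcna3* is a channel of OSNs and also of T cells, and the summed immune markers, which were lower in both lines, were given above. Their part in the fall of *Kcna3* was not tested.

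Electrically silent subunits, which form channels only together with other Kv subunits, were also found in reporter-negative cells. *Kcns3* was at 72.3 TPM in GFP-negative against 7.21 TPM in GFP-positive cells and at 74.4 TPM in tdTomato-negative against 30.4 TPM in tdTomato-positive cells (log2 fold changes -3.16 and -1.26). *Kcng1* was at 48.8 TPM in GFP-negative against 0.991 TPM in GFP-positive cells and at 48.9 TPM in tdTomato-negative against 24.4 TPM in tdTomato-positive cells (log2 fold changes -4.64 and -0.97). *Kcng1* had the most negative log2 fold change of all members in GFP-positive cells, where it was at 0.991 TPM, and relative to the median of the mature OSN markers it lay at -1.63 on the log2 scale. *Kcns3* was lower in both lines, and *Kcng1* was within 2-fold in tdTomato-positive cells.

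The *Kcnh* family of EAG, ERG and ELK channels, which carry slow or subthreshold potassium currents, had 5 of its 8 genes at more than 10 TPM. The ELK-type genes *Kcnh4* and *Kcnh3* were the highest. *Kcnh4* was at 273 TPM in GFP-negative against 35.04 TPM in GFP-positive cells and at 311 TPM in tdTomato-negative against 189.6 TPM in tdTomato-positive cells (log2 fold changes -2.93 and -0.71). *Kcnh3* was at 175 TPM in GFP-negative against 29.4 TPM in GFP-positive cells and at 199 TPM in tdTomato-negative against 158 TPM in tdTomato-positive cells (log2 fold changes -2.53 and -0.34). Both were lower in GFP-positive cells, with a change of sign under scaling to the mature OSN markers, and neither differed by 2-fold in tdTomato-positive cells. The third ELK-type gene, *Kcnh8* (24.9, 5.31, 17.3 and 22.03 TPM), and the ERG-type gene *Kcnh2* (17.8, 4.56, 21.7 and 23.2 TPM), known as the channel of cardiac repolarisation, were lower in GFP-positive cells, where they changed sign in the same way, and within 2-fold in tdTomato-positive cells. *Kcnh6*, another ERG-type gene, was at 32.2 TPM in GFP-negative against 1.66 TPM in GFP-positive cells and at 39.6 TPM in tdTomato-negative against 6.59 TPM in tdTomato-positive cells (log2 fold changes -3.64 and -2.42). It was thus lower in both lines, and its log2 fold change was the lowest of any member at 5 TPM or more in the tdTomato line. *Kcnh1*, an EAG-type gene, was higher in GFP-positive cells at a low level (0.6700, 2.86, 3.67 and 2.06 TPM). *Kcnq1* (13.5, 13.5, 16.5 and 12.4 TPM), the pore subunit of slow potassium currents in heart and epithelia, differed by less than 2-fold in both lines.

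The promoters of 4 Kv and inward rectifier genes are shown to set a gene lower in both lines (*Kcnh6*) and the highest 2 Kv genes of reporter-negative cells (*Kcnc4*, *Kcnh4*) beside a gene higher in both lines (*Kcnj1*). The sequences are from RefSeq on GRCm38.p6, with 250 bases before and 50 after the start of transcription, and capitals mark CCCNNGGG, the core of the motif bound by EBF factors, which was searched on both strands (it reads the same on both, and matches may overlap). *Kcnc4* (chr3:107458849-107459148, minus strand) held it at -183 and -182 from the start, *Kcnh4* (chr11:100759729-100760028, minus strand) at -46, *Kcnh6* (chr11:106007898-106008197, plus strand) at -52 and -51, and *Kcnj1* (chr9:32393735-32394034, plus strand) not at all.
Kcnc4: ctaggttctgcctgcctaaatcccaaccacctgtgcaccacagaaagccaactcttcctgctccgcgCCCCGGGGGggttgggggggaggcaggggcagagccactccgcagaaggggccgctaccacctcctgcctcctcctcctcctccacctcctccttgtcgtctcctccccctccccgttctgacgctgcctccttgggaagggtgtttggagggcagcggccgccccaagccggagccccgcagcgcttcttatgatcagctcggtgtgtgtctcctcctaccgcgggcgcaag
Kcnh4: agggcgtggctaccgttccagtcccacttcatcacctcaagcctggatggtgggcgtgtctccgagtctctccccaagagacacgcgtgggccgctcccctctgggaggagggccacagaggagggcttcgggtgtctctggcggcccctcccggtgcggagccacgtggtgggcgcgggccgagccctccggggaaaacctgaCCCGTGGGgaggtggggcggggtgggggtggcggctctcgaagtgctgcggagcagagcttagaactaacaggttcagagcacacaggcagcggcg
Kcnh6: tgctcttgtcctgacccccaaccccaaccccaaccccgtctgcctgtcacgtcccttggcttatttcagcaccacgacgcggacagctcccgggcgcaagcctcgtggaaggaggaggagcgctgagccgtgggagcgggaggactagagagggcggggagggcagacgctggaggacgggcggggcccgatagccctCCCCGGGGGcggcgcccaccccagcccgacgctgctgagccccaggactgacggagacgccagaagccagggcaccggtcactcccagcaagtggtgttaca
Kcnj1: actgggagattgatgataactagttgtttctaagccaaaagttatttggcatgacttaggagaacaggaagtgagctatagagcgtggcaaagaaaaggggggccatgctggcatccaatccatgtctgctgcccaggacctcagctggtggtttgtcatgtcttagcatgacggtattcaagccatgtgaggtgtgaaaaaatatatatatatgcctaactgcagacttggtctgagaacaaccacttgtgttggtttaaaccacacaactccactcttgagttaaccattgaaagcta
Windows were found for 100 of the 136 members. CCCNNGGG was in a window of 23 of the 100 members (23%) and of 15.4% of all 27025 genes with a window. Among members with a window, 2 of 11 lower in both lines held it (*Kcna3*, *Kcnh6*), as did 0 of 9 higher in both. The homeodomain core TAATTA was in a window of 0 of 100 members and of 6.12% of all genes. The windows of members lower in both lines had a GC content of 63.7% and those of members higher in both 49.5%, against 59.7% over all members and 53.8% over all genes. These matches are a description of the letters.

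Of the 10 genes of calcium- and sodium-activated potassium channels and their subunits tested in the GFP line 6 were lower and 1 was higher, and of the 11 tested in the tdTomato line 4 were lower and 2 higher. These shares are read against 45% lower and 14.2% higher of all genes tested in the GFP line and 23.2% and 17.2% in the tdTomato line. The shares of higher genes lay near these, and the shares of lower genes lay above them, with few genes tested. Their sums were 459.5 TPM in GFP-negative against 120.3 TPM in GFP-positive cells, with 477 TPM in tdTomato-negative against 513 TPM in tdTomato-positive cells, giving log2 ratios of -1.93 in the GFP line and 0.10 in the tdTomato line, which scaling to the mature OSN markers moved to 1.14 and 1.13, so that they were nearly equal on that scale. *Kcnma1*, the pore subunit of the large-conductance BK channel, was at 21.5 TPM in GFP-negative against 10.6 TPM in GFP-positive cells and at 34.3 TPM in tdTomato-negative against 43.4 TPM in tdTomato-positive cells (log2 fold changes -0.95 and 0.33), so it was within 2-fold in both lines. Of its beta subunits, which set calcium sensitivity and inactivation, *Kcnmb3* and *Kcnmb2* had higher levels than the pore gene in all 4 libraries. *Kcnmb3* was at 241 TPM in GFP-negative against 22.8 TPM in GFP-positive cells and at 246 TPM in tdTomato-negative against 239 TPM in tdTomato-positive cells (log2 fold changes -3.35 and -0.04). *Kcnmb2* was at 66.9 TPM in GFP-negative against 25.5 TPM in GFP-positive cells and at 67.05 TPM in tdTomato-negative against 75.6 TPM in tdTomato-positive cells (log2 fold changes -1.36 and 0.17). Both were lower in GFP-positive cells, *Kcnmb2* with a change of sign under scaling to the mature OSN markers, and both stood at about their tdTomato-negative level in tdTomato-positive cells. *Kcnmb4*, the neuronal beta subunit, was at 36.1 TPM in GFP-negative against 14.4 TPM in GFP-positive cells and at 18.05 TPM in tdTomato-negative against 52.4 TPM in tdTomato-positive cells (log2 fold changes -1.27 and 1.49). It was called in opposite directions in the lines, the difference between the lines was not tested, and the fall in GFP-positive cells changed sign under scaling to the mature OSN markers. The 5 markers of olfactory ensheathing glia summed to 37.4 TPM in GFP-negative against 2.17 TPM in GFP-positive cells, with 13.7 TPM in tdTomato-negative against 56.8 TPM in tdTomato-positive cells. Of those tested, 3 of 3 were lower in the GFP line and 3 of 3 higher in the tdTomato line. *Frzb* and *Npy* were listed at 0 in both libraries of the GFP line, *S100b* in both of the tdTomato line, *Npy* in tdTomato-negative and *Frzb* in tdTomato-positive cells. Their part in the values of *Kcnmb4* was not tested. *Kcnmb4* exons share 20.8% of their bases with *Kcnmb4os2* and 10.7% with *Kcnmb4os1* on the opposite strand, and reads of both strands can be told apart only if the libraries kept strand, which is not stated. *Kcnmb4os2* was listed at 1.15 TPM in GFP-positive cells and at 0 in the other 3 libraries.

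*Kcnmb1*, best known as the beta subunit of smooth muscle, was at 0.786 TPM in GFP-negative, 12.5 TPM in GFP-positive and 52.02 TPM in tdTomato-positive cells and listed at 0 in tdTomato-negative cells. It was higher in both lines. The 7 markers of endothelial and mural cells summed to 84.5 TPM in GFP-negative against 264 TPM in GFP-positive cells, with 208 TPM in tdTomato-negative against 29.8 TPM in tdTomato-positive cells, with 1 gene higher and 3 lower in each line. *Cdh5* was listed at 0 in both reporter-positive libraries and *Pdgfrb* in tdTomato-positive cells, and their part in the rise of *Kcnmb1* was not tested. *Lrrc26*, an auxiliary gamma subunit of the BK channel in secretory epithelia, which was on a list of partner proteins, rose alongside *Kcnmb1* at 7.597 TPM in GFP-negative against 209.9 TPM in GFP-positive cells and at 22.5 TPM in tdTomato-negative against 95.2 TPM in tdTomato-positive cells (log2 fold changes 4.62 and 2.03). The small-conductance gene *Kcnn2* was at 57.8 TPM in GFP-negative against 4.45 TPM in GFP-positive cells and at 62.8 TPM in tdTomato-negative against 32.1 TPM in tdTomato-positive cells (log2 fold changes -3.43 and -0.95), which made it lower in the GFP line. *Kcnn1* (12.6, 2.53, 18.6 and 10.04 TPM) was lower in GFP-positive cells, again with a change of sign under that scaling, and within 2-fold in tdTomato-positive cells, and *Kcnn3* (5.23, 0.363, 5.24 and 0.652 TPM) was lower in both lines. *Kcnn4*, the intermediate-conductance channel of epithelia and immune cells, was at 14.8 TPM in GFP-negative against 25.97 TPM in GFP-positive cells and at 16.2 TPM in tdTomato-negative against 7.05 TPM in tdTomato-positive cells (log2 fold changes 0.77 and -1.10), within 2-fold in the GFP line and lower in the tdTomato line, and the part of the immune cells in this was not tested.

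Of the 8 genes of auxiliary subunits tested in the GFP line 3 were higher and 2 lower, and of the 7 tested in the tdTomato line 3 were higher and 1 was lower, against 14.2% higher and 45% lower of all genes in the GFP line and 17.2% and 23.2% in the tdTomato line. *Kcnab2*, a beta subunit that binds Kv1 channels, was at 259 TPM in GFP-negative against 29.3 TPM in GFP-positive cells and at 299.6 TPM in tdTomato-negative against 156 TPM in tdTomato-positive cells (log2 fold changes -3.10 and -0.93), among the 10 highest members of both reporter-negative libraries. The other genes of this type were low, with *Kcnab1* higher in both lines (0.407, 2.34, 0 and 2.06 TPM) and *Kcnab3* within 2-fold in both (2.33, 1.69, 1.11 and 2.19 TPM). *Kcnip4*, a subunit of Kv4 channels, was lower in GFP-positive cells (15.7, 6.88, 16.8 and 10.4 TPM), with a change of sign under scaling to the mature OSN markers. *Kcne3*, which keeps KCNQ1 channels open in epithelia, was at 1.92 TPM in GFP-negative against 41.4 TPM in GFP-positive cells and at 7.13 TPM in tdTomato-negative against 23.3 TPM in tdTomato-positive cells (log2 fold changes 3.86 and 1.58). *Kcne2*, with a like role in the stomach, was listed at 0 in GFP-negative and tdTomato-negative cells and reached 3.100 TPM in the GFP-positive and 1.26 TPM in the tdTomato-positive library. Both *Kcne* genes tested were thus higher in both lines, beside a *Kcnq1* level that stayed within 2-fold.

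Of the 8 inward rectifier genes tested in each line, 5 were higher and 2 lower in GFP-positive cells, and 4 were higher and 2 lower in tdTomato-positive cells. Over all genes tested, 14.2% were higher and 45% lower in the GFP line and 17.2% and 23.2% in the tdTomato line, so that the share of lower inward rectifiers in the tdTomato line was near that of all genes. The sum of their TPM had log2 ratios of 2.02 and 1.62. Each of the 3 scalings raises reporter-positive values in both lines, so none of them could turn these ratios. *Kcnj16* was at 2.54 TPM in GFP-negative against 125 TPM in GFP-positive cells and at 6.94 TPM in tdTomato-negative against 82.5 TPM in tdTomato-positive cells (log2 fold changes 5.15 and 3.40). This was the largest rise of any member in the GFP line on the log2(TPM + 1) scale. Without a pseudocount, the ratio of GFP-positive to GFP-negative TPM was larger for *Kcnj1* (318) than for *Kcnj16* (49.1). *Kcnj16* encodes a subunit that forms channels with the products of *Kcnj10* or *Kcnj15*. *Kcnj10* stayed under 1 TPM in all libraries. *Kcnj15* was at 1.82 TPM in GFP-negative against 40.97 TPM in GFP-positive cells and at 12.5 TPM in tdTomato-negative against 20.97 TPM in tdTomato-positive cells (log2 fold changes 3.90 and 0.70). *Kcnj15* was therefore higher in GFP-positive cells, and its change in tdTomato-positive cells was under 2-fold.

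*Kcnj1*, the renal potassium secretory channel, was at 0.06500 TPM in GFP-negative against 20.7 TPM in GFP-positive cells and at 7.101 TPM in tdTomato-negative against 22.5 TPM in tdTomato-positive cells (log2 fold changes 4.35 and 1.54). *Kcnj5*, a subunit of channels opened by G proteins, was at 2.496 TPM in GFP-negative against 25.7 TPM in GFP-positive cells and at 12.4 TPM in tdTomato-negative against 97.98 TPM in tdTomato-positive cells (log2 fold changes 2.93 and 2.88). Both were higher in both lines, and they are neighbours on chromosome 9, with 28142 bases between them. *Kcnj3*, which encodes the usual partner of *Kcnj5* in the heart, was lower in both lines at a low level (1.71, 0.104, 3.81 and 0.0113 TPM). *Kcnj13*, found in transporting epithelia such as the retinal pigment epithelium, was at 3.96 TPM in GFP-negative against 21.9 TPM in GFP-positive cells and at 2.33 TPM in tdTomato-negative against 46.6 TPM in tdTomato-positive cells (log2 fold changes 2.21 and 3.84). The exons of *Kcnj13* share 49.1% of their bases with *Gigyf2* on the opposite strand, which was at 39.7 TPM in GFP-negative against 22.02 TPM in GFP-positive cells and at 57.8 TPM in tdTomato-negative against 30.7 TPM in tdTomato-positive cells. Whether the libraries kept strand is not stated, and the part of *Gigyf2* reads in the values of *Kcnj13* was not tested. *Kcnj2*, the classical inward rectifier of muscle and neurons, was at 47.1 TPM in GFP-negative against 18.95 TPM in GFP-positive cells and at 53.7 TPM in tdTomato-negative against 43.1 TPM in tdTomato-positive cells (log2 fold changes -1.27 and -0.31). It lies 38195 bases from *Kcnj16* on chromosome 11, and it was lower in GFP-positive cells, where *Kcnj16* was higher, although the fall in *Kcnj2* changed sign under scaling to the mature OSN markers.

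Genes of potassium channels with a pair of pore domains, which carry leak currents, had sums of 68.3 TPM in GFP-negative against 97.5 TPM in GFP-positive cells, with 76.96 TPM in tdTomato-negative against 109 TPM in tdTomato-positive cells. Of the 7 tested in each line, 3 were higher and 1 lower in GFP-positive cells, and 2 were higher and 1 lower in tdTomato-positive cells. Over all genes tested, 14.2% were higher and 45% lower in the GFP line and 17.2% and 23.2% in the tdTomato line. The median log2 fold changes of the tested pore-pair genes were 0.91 and -0.27. *Kcnk1* was at 5.13 TPM in GFP-negative against 61.2 TPM in GFP-positive cells and at 9.83 TPM in tdTomato-negative against 18.7 TPM in tdTomato-positive cells (log2 fold changes 3.34 and 0.86). *Kcnk5*, an epithelial channel gated by external pH, was at 4.97 TPM in GFP-negative against 10.2 TPM in GFP-positive cells and at 3.68 TPM in tdTomato-negative against 23.7 TPM in tdTomato-positive cells (log2 fold changes 0.91 and 2.40). *Kcnk12* was listed at 0 TPM in GFP-negative and tdTomato-negative cells, at 5.76 TPM in GFP-positive and at 28.7 TPM in tdTomato-positive cells. *Kcnk1* was called higher in the GFP line, *Kcnk5* in the tdTomato line and *Kcnk12* in both, and how the lines differ in this was not tested. *Kcnk10*, a mechanosensitive leak channel of neurons, was at 50.6 TPM in GFP-negative against 10.3 TPM in GFP-positive cells and at 56.05 TPM in tdTomato-negative against 34.4 TPM in tdTomato-positive cells (log2 fold changes -2.19 and -0.69), lower in GFP-positive cells with a change of sign under scaling to the mature OSN markers. The rises of the inward rectifier, *Kcne* and *Kcnk* genes accompanied the higher markers of Bowman gland cells (5 of 5 genes in both lines) and multiciliated cells (6 and 8 of 8) given above. Sustentacular markers were higher in the GFP line (6 of 6) and went both ways in the tdTomato line (2 higher and 2 lower of 6), and markers of horizontal basal cells (4 of 4) and stromal fibroblasts (3 of 4) were higher in the GFP line. The 6 markers of tuft-like microvillar cells and ionocytes summed to 48.9 TPM in GFP-negative against 244 TPM in GFP-positive cells, with 255 TPM in tdTomato-negative against 236 TPM in tdTomato-positive cells, with 3 higher and 1 lower in the GFP line and 3 lower in the tdTomato line, where *Chat* was listed at 0 in tdTomato-positive cells. The part of any of these cell types in the rises was not tested.

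**Figure D3:**
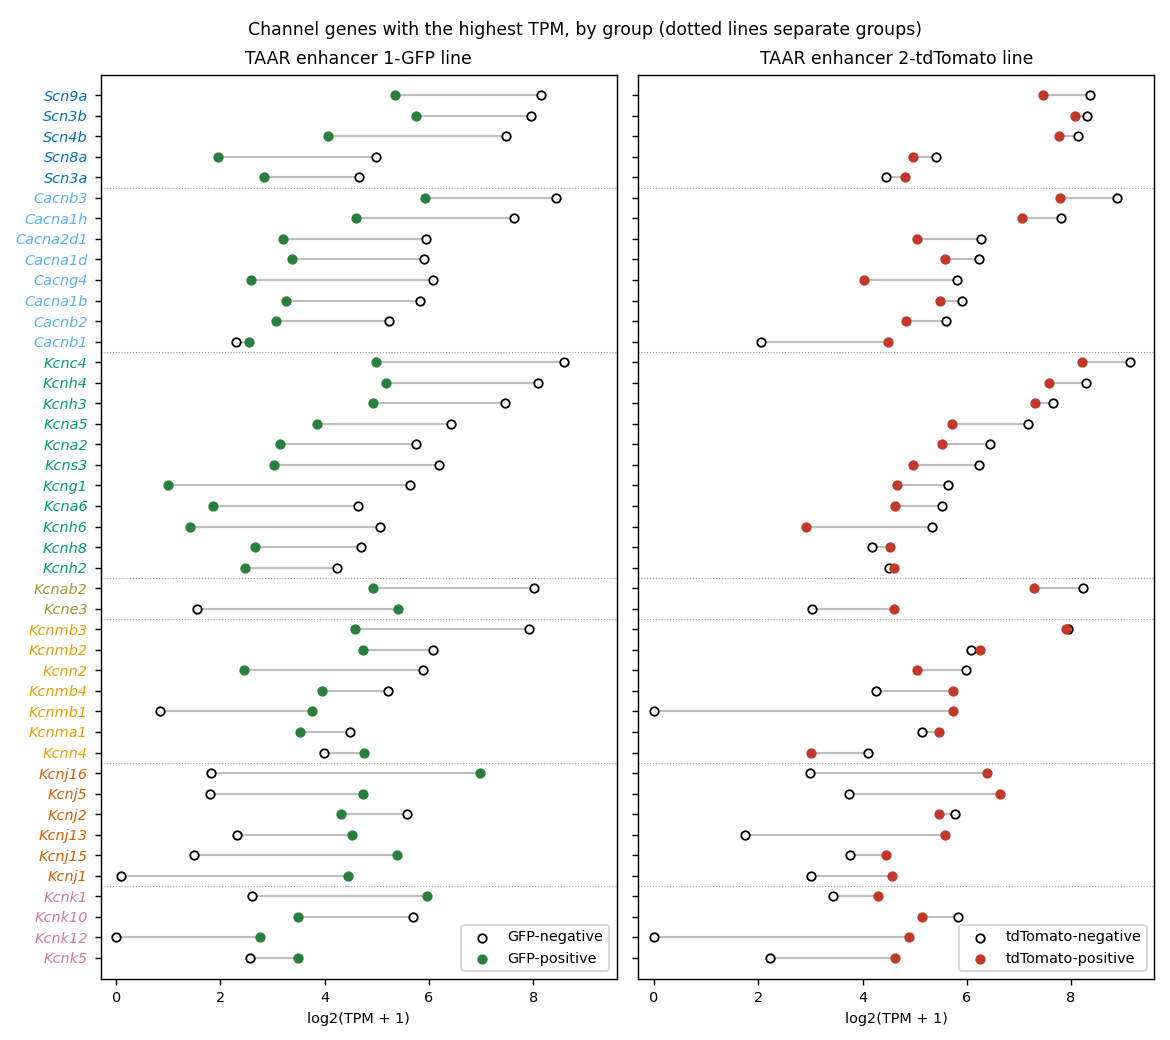
Level of 43 of the 45 channel genes with the highest TPM on the log2(TPM + 1) scale (horizontal axis) in reporter-negative (open) and reporter-positive cells (filled) of the TAAR enhancer 1-GFP line (left) and the TAAR enhancer 2-tdTomato line (right), with 1 library per point and a grey line joining the libraries of a line. *Kcnc4* was at 386 and 30.8 TPM in the GFP line, *Kcnj16* at 2.54 and 125 TPM, and the line joining the libraries of *Kcnc4* is longer on the left than on the right while that of *Cacnb1* is longer on the right.

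The 39 members at 10 TPM or more in both reporter-negative libraries were set against the 12 mature OSN markers, whose log2 fold changes had a median of -3.02 (-3.53 to -2.73) in the GFP line and -1.02 (-1.46 to -0.50) in the tdTomato line. These members were kept for their level in reporter-negative cells, so members that were low there and higher in reporter-positive cells are not among them, and no count or median over them is given. *Kcnh4* and *Scn9a* stood within 1.5-fold of the median of the OSN markers in both lines. *Kcnmb3* did so in the GFP line and was 0.98 log2 units above the median in the tdTomato line. *Scn3a*, *Kcnh8*, *Kcnma1*, *Kcnmb2* and *Kcnh2* lay from 1.12 to 1.401 units above it in the tdTomato line, and *Kcnmb4* lay 2.51 units above it. *Kcnh6* was the lowest, at -1.39 relative to that median. The plot of the changes relative to the OSN markers shows both lines side by side.

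**Figure D4:**
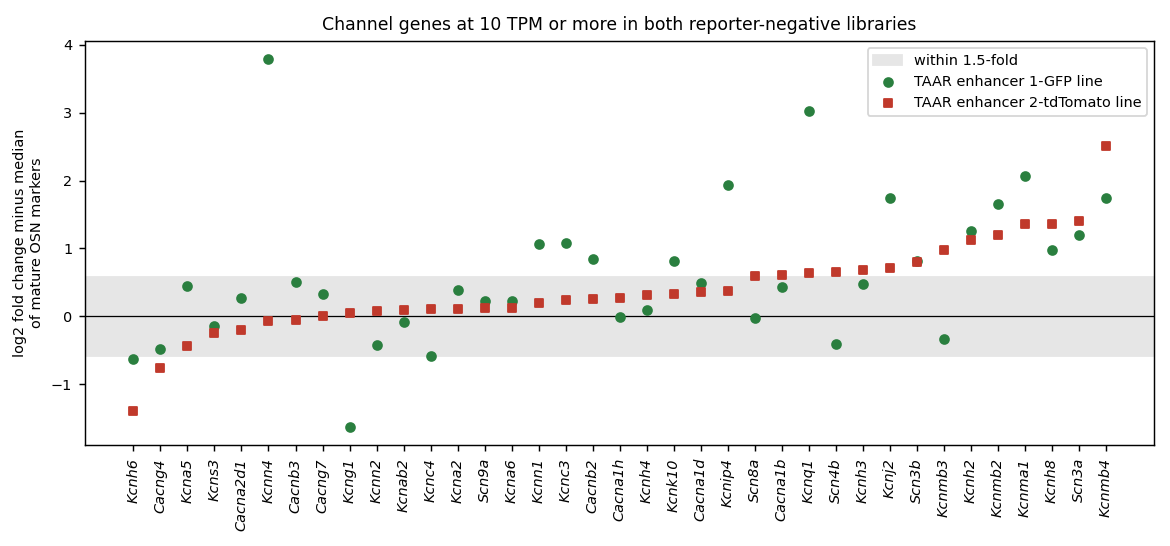
Log2 fold change minus the median of the 12 mature OSN markers (vertical axis) for 37 of the 39 channel genes at 10 TPM or more in both reporter-negative libraries (horizontal axis), in the TAAR enhancer 1-GFP line (circles) and the TAAR enhancer 2-tdTomato line (squares), with the range within 1.5-fold in grey. *Scn9a* lies in the grey range in both lines, *Kcnh6* lies lowest in the tdTomato line (-1.39) and *Kcng1* lowest in the GFP line (-1.63).

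Other channel genes were taken from 4 lists to place these values, and their counts are read against the shares of all genes tested, which were 14.2% higher and 45% lower in the GFP line and 17.2% and 23.2% in the tdTomato line. The cyclic nucleotide-gated, HCN and leak channel genes, which carry the receptor current and pacemaker currents, had median log2 fold changes of -2.72 and -0.87, and 3 of them (*Cnga2*, *Cnga4*, *Cngb1*) are also mature OSN markers. Of 8 tested in the GFP line 7 were lower, and of 13 tested in the tdTomato line 6 were lower and 1 was higher. The chloride and anoctamin genes had 3 higher and 3 lower of 12 tested in the GFP line, and 2 and 2 of 14 in the tdTomato line. TRP, Piezo, ASIC and other cation channel genes had 6 higher and 5 lower of 17, and 3 and 4 of 16, which in the tdTomato line is near the shares of all genes. The partner proteins of voltage-gated channels had 1 higher and 11 lower of 15 in the GFP line, and 2 and 5 of 15 in the tdTomato line. *Fgf12*, which binds sodium channel pore subunits, was at 127 TPM in GFP-negative against 13.9 TPM in GFP-positive cells and at 132 TPM in tdTomato-negative against 89.9 TPM in tdTomato-positive cells and was lower in GFP-positive cells. *Kcnrg*, which encodes a regulator of Kv channel assembly, carries a symbol that the rule does not match and was looked at after its values were seen. It was at 2.203 TPM in GFP-negative against 99.6 TPM in GFP-positive cells and at 15.1 TPM in tdTomato-negative against 282 TPM in tdTomato-positive cells, higher in both lines.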

How the data were processed

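RNA-seq was performed on FACS-sorted MOE cells, with 1 library for each of 4 groups. The values deposited by the authors are TPM per gene symbol, and per the labels reads were trimmed with Trimmomatic 0.36 and quantified with Salmon 1.4.0 on mm10 (the submitters' processing notes), while the study's methods describe genome alignment for RNA-seq. Strandedness is not stated. Each library sums to 1000000 TPM, so depth is unknown and no interval or detection limit was calculated. Columns were matched to samples by name. Log2(TPM + 1) was compared within each line using Python 3.11.15, NumPy 2.4.6 and pandas 2.3.3, for genes at 1 TPM or more in either library, and a difference of at least 2-fold was called. Scripts were tested on simulated data. No p-values were calculated. The members, the 12 marker lists (73 genes) and the 4 lists of other channel genes (75 genes) were chosen with earlier results of these data known.

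Values in every library are given for the 45 members with the highest maximum among those at 10 TPM or more, and for the 5 that rose most and 5 that fell most in each line among members at 5 TPM or more. Other members are named within their family. A few members are not reported here, but they are included in counts, sums and medians. Alternatives were pseudocounts of 0.1 and 10, no minimum or a minimum of 5 TPM, a 4-fold call, protein-coding members only, and 3 scalings of the libraries (to the median ratio, without the 10 highest genes of any library, and to an equal mean log2 level of the 12 mature OSN markers). Positions and exon overlaps are from GENCODE M21, and promoters are from RefSeq on GRCm38.p6.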

Additional observations from a re-analysis of the deposited data

Results flagged for a closer look

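*Kcnmb4* was the 1 member that went past 2-fold in opposite directions in the lines, with 1 library per group. Its log2 fold change was -1.27 in GFP-positive cells (14.4 TPM against 36.1 TPM in GFP-negative cells) and 1.49 in tdTomato-positive cells (52.4 TPM against 18.0 TPM in tdTomato-negative cells). The reporter-negative libraries also differed for this gene, and the difference between the lines was not tested.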

How the results depend on the processing

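No paired analysis was possible because no result comes from a test, a group is 1 library and the lines carry different enhancers. Counts are given as higher and lower members. The median of the GFP line was -2.19 with a pseudocount of 0.1 and -0.42 with 10, the latter with 8 and 30 members in GFP-positive, 9 and 6 in tdTomato-positive cells, and 4 and 6 in both. With a minimum of 5 TPM, which leaves fewer genes tested, there were 9 higher in GFP-positive, 10 lower in tdTomato-positive ones and a median of -2.19 in the GFP line. With a 4-fold call there were 30 lower in GFP-positive, 9 and 8 in tdTomato-positive cells, and 5 and 2 in both. Median-ratio scaling gave a log2 ratio of sums of -1.06 in the GFP line. Scaling to the mature OSN markers, which moved the median of all genes by 2.88 and 0.95, gave 45 and 3 in GFP-positive, 24 and 13 in tdTomato-positive cells, 23 and 2 in both, medians of 1.04 and 0.30, and log2 ratios of sums of 1.13 and 0.55. Under it, genes that changed sign in the GFP line included *Cacna1a*, *Kcnip4*, *Kcnn1*, *Cacna1b* (0.34), *Cacna1d* (0.42), *Cacna2d1* (0.18), *Cacnb2* (0.74), *Cacnb3* (0.54), *Kcna2* (0.30), *Kcna5* (0.41), *Kcnh2* (1.04), *Kcnh3* (0.50), *Kcnh4* (0.11), *Kcnh8* (0.80), *Kcnj2* (1.72), *Kcnk10* (0.76), *Kcnmb2* (1.66), *Kcnmb4* (1.70), *Scn3a* (1.04), *Scn3b* (0.85) and *Scn9a* (0.26). The counts and medians kept within 1.5-fold of these values with no minimum, without the 10 highest genes of any library and with protein-coding members only. For single genes in a line, 42 of 90 values moved by over 1.5-fold under median-ratio scaling (which moved the median of all genes by 0.81 and 0.15), 9 with a pseudocount of 0.1, 39 with 10, and 0 without the 10 highest genes (shifts of 0.45 and 0.05). Under scaling to the mature OSN markers, 70 of the 90 values moved, 18 changed sign and 2 stayed the same by this measure. Depth is unknown, so genes near 1 TPM or listed at 0 have no known precision.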
